A study of Mus musculus with 12 samples.

Results

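Immediate early genes were followed through the forced expression of a transcription factor fusion in mouse embryonic stem cells. The set holds 7 of the 18524 genes named on the array, namely Fos, Jun, Junb, Egr1, Ier2, Zfp36 and Atf3. Membership was by name: every array probe that the platform annotation gives to these genes was taken, and each gene had 1 probe. All cells were E14tg2a embryonic stem cells of strain 129/P2, grown in GMEM with LIF and FCS. A doxycycline (dox)-inducible Tcf15-E47 line was sampled at 0, 8, 12 and 24 h of 1 µg/mL dox, and its parental control cells were sampled at 0 and 8 h. Each of the 6 groups had 2 arrays, so n = 2 for every group value. The labels do not say that replicates were separate cultures, so p-values measure the spread between these samples, which may be technical. They also do not name the promoter of the construct or say whether the line is 1 clone, and parental cells at 12 and 24 h were not analysed here.

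Immediate early genes are transcribed within minutes of a growth factor, serum or stress signal, without new protein synthesis. ERK and stress kinases act on factors already in the nucleus, such as SRF with its ternary complex partners, which bind CArG boxes, and CREB, which binds cAMP response elements. Their products are mostly short-lived: Fos, Jun and Junb pair into AP-1, Egr1 is a zinc finger factor that binds GC-rich sites, Atf3 is a stress-induced bZIP factor, Ier2 is a nuclear protein, and Zfp36 (tristetraprolin) binds AU-rich elements and speeds mRNA decay. In embryonic stem cells, FGF signalling through ERK feeds this programme. Tcf15 belongs to the basic helix-loop-helix factors, which bind E-boxes as dimers, and E47, encoded by Tcf3, is a widespread dimer partner of this class.

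The promoters of Zfp36, Fos and Junb are shown because Zfp36 was the member that passed the test in a comparison, Fos is the member detected at a single time point of the Tcf15-E47 cells, and Junb is the steady AP-1 member with a similar start-proximal E-box. Each runs from 250 bases before to 50 bases after the RefSeq gene start (GRCm38.p6), 5′ to 3′ on the gene's strand. Capitals mark matches, on either strand, to an E-box (CANNTG, of which CAGCTG is one form), the TGACG core of the cAMP response element, a CArG box, the EGR letters GCGNGGGCG or TATAAA. RefSeq entries matched 5 of the 7 members.
Zfp36 (chr7:28379179-28379478, minus strand): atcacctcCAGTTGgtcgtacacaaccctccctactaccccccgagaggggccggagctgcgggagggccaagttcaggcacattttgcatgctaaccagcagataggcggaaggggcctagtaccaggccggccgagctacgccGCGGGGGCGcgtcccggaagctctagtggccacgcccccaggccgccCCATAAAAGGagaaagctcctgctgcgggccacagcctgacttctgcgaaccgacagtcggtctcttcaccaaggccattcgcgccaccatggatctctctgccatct
Fos (chr12:85473640-85473939, plus strand): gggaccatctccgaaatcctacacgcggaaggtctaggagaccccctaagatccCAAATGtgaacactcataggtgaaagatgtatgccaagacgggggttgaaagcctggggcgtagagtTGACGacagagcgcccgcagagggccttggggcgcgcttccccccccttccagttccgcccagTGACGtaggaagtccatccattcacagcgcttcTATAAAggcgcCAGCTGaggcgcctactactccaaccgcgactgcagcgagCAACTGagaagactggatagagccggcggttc
Junb (chr8:84978699-84978998, minus strand): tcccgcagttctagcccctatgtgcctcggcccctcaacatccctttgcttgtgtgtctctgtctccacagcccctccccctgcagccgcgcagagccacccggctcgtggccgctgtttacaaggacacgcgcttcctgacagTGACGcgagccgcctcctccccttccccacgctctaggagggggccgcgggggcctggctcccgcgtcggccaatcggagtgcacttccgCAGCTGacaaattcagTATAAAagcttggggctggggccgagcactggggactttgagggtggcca
In Zfp36 the CArG match spans bases -58 to -49 from the start, and such a match was present in 1.63% of the 32851 promoters searched. The EGR letters stand at -105 to -97 in Zfp36 and were present in 5.55% of promoters. Both Fos and Junb have CAGCTG close to the start, at -22 to -17 in Fos and at -16 to -11 in Junb, against 16.3% of all promoters with these letters. TGACG occurs at -129 and -66 in Fos and at -106 in Junb, against 20.8% of promoters. At least 1 E-box of any form was found in all 5 members with an entry, and in 72.3% of all promoters. TATAAA stands at -33 in Fos and at 1 in Junb, against 13.6% of promoters. Jun (chr4:95052173-95052472, minus strand) had 1 E-box, at -188, and Atf3 (chr1:191183284-191183583, minus strand) had E-boxes at -227 and -113 and a TGACG at -7. None of the 5 held the full element TGACGTCA or the AP-1 letters TGANTCA in this window. A match is a run of letters and not a measured binding site.

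Values are log2 signal after background correction and quantile normalization. A probe was detected on an array at a detection p under 0.01, the p that its signal comes from the negative control beads. Of the 38561 probes, 13914 were detected on at least 2 arrays and were tested. Median signal per array was 89.0 to 103.1 units, and 30.7% to 34.7% of probes were detected. The construct check rests on Tcf3: its probe ILMN_2596277 rose by 1.28 ± 0.16 (SE) log2 units in Tcf15-E47 cells at 8 h against 0 h (limma adjusted p = 0.0249), its probe ILMN_2596278 read 1.19 higher (adjusted p = 0.115), and the Tcf15 probe, whose place relative to the construct is not given in the sources used here, did not pass (0.03, adjusted p = 0.999). Of the 10 embryonic stem cell markers 9 had a probe, and all 9 were detected on every array. The array of parental cells at 8 h, replicate 2, stood apart: the summed signal of 10 fibroblast and smooth muscle markers was 3133 units there, against 967 to 1202 on the other 11 arrays. Acta2, smooth muscle actin, made most of this, with 2019 units against 89.5 to 120.4. Col1a1, Col1a2 and Tagln were detected on that array alone, while Lum, Postn, Cnn1 and Col3a1 were not detected on any array. RNA was from whole cultures, where fewer cells of a type and less RNA per cell cannot be told apart.

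**Figure D1:**
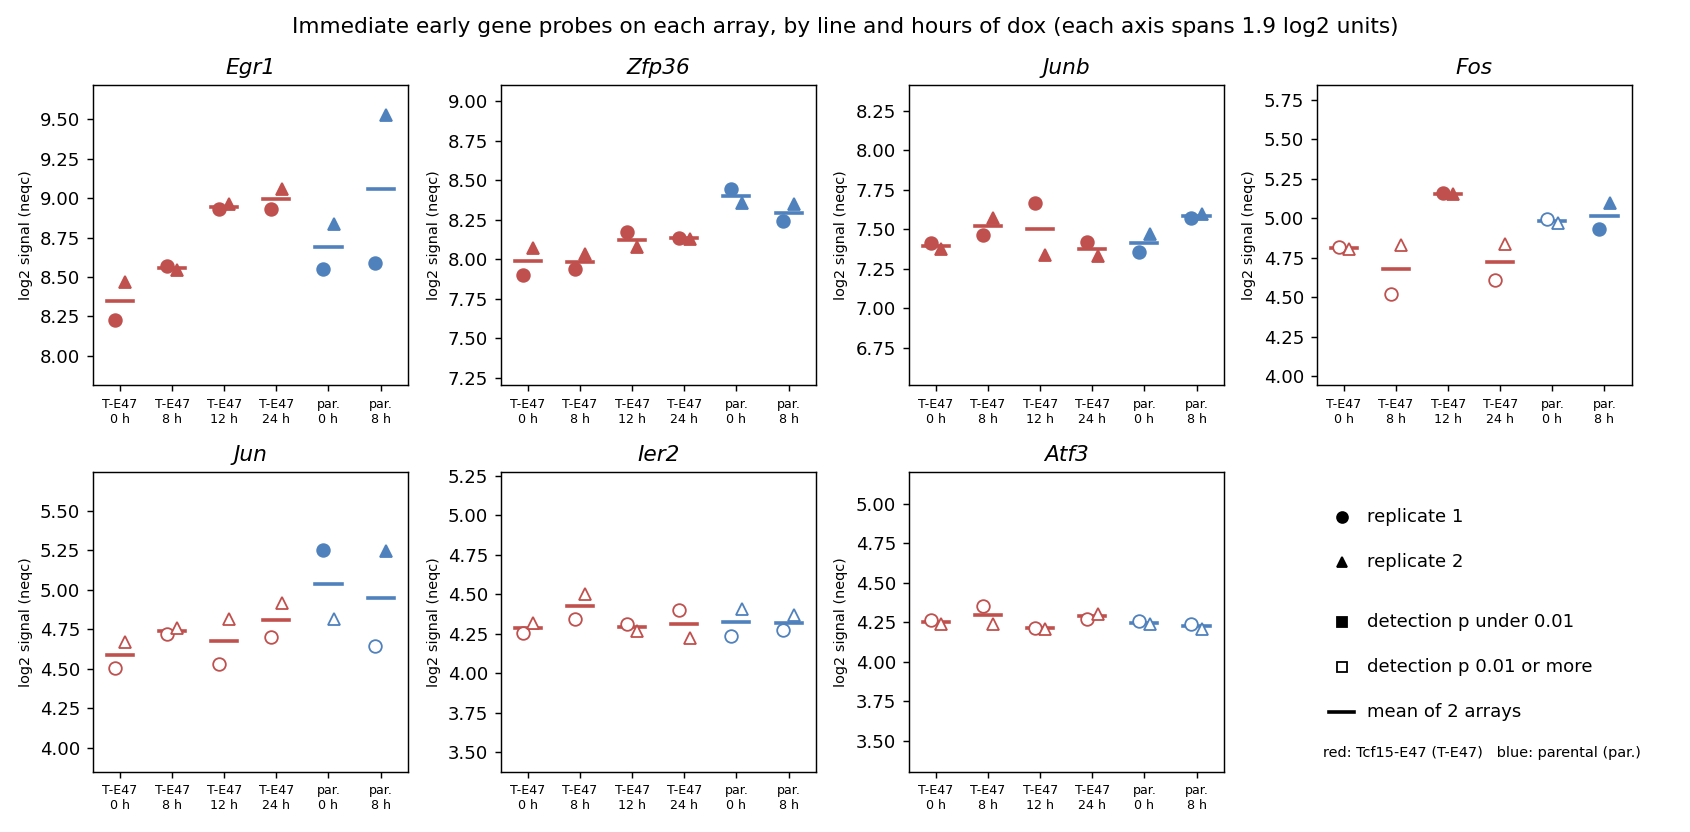
Log2 signal of the 7 probes on each of the 12 arrays, with Tcf15-E47 cells (red) by hours of dox and then parental cells (blue). Circles and triangles are replicates 1 and 2, open symbols are below detection, and bars are means of 2 arrays. Egr1, Zfp36 and Junb were detected on all 12 arrays, Fos on 4, Jun on 2, and Ier2 and Atf3 on 0.

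The members fell into 3 tiers of detection. Egr1, Zfp36 and Junb were above background on every array. Fos was detected on 4 arrays, both of Tcf15-E47 cells at 12 h and both of parental cells at 8 h, and Jun on 2, parental 0 h replicate 1 and parental 8 h replicate 2. Fos and Jun thus passed the filter only through these arrays, which include their highest readings. For Fos the split is partly one of threshold. Untreated parental arrays read 5.0 and 4.97 (detection p 0.0150 and 0.0107), above the detected parental 8 h replicate 1 at 4.93 (detection p 0.0096). Ier2 and Atf3 did not pass. Signal differs between probes for reasons of probe design, so the members are compared across arrays and not with each other. Between the untreated lines 1 of the 5 tested members passed, where 3.51% of all tested probes passed. None passed in the other comparisons, where 0% to 6.09% of all tested probes passed.

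Egr1 read about 1.5-fold more in Tcf15-E47 cells at 12 and 24 h of dox than at 0 h, and this did not pass the test. Over the time course the 2 arrays read 8.23 and 8.47 at 0 h, 8.57 and 8.55 at 8 h, 8.93 and 8.96 at 12 h, and 8.93 and 9.06 at 24 h. In parental cells they read 8.59 and 9.53 at 8 h, against 8.55 and 8.84 at 0 h. The arrays of both late time points lay above both 0 h arrays. Parental 8 h replicate 2 was the highest of all 12, as it was for 7.14% of tested probes. The difference at 12 h against 0 h was 0.60 ± 0.22 log2 units (SE, 1.51-fold, 95% confidence interval 0.13 to 1.07, limma adjusted p = 0.127). At 24 h against 0 h it was 0.65 ± 0.22 (1.57-fold, interval 0.18 to 1.12, adjusted p = 0.135). Of all tested probes, 6.09% passed at 12 h and 3.06% at 24 h. Groups of arrays that do not overlap are common here: 29% of all tested probes lay wholly higher at 12 h than at 0 h, and 24.2% at 24 h.

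The size of the Egr1 error depended on 1 array. The fit shares 1 spread per probe over the 6 groups, and the replicates of parental cells at 8 h differed by 0.94 log2 units for Egr1, a gap larger than that of 99.9% of tested probes in that group (median gap 0.11). Without parental 8 h replicate 2, which belongs to neither group compared, the Egr1 differences kept their values of 0.60 and 0.65, the SE was 0.13, and both passed (adjusted p = 0.0187 at 12 h and 0.0190 at 24 h). That array was chosen for leaving out after seeing the data. With only the groups compared in the fit, the adjusted p was 0.0205 at 12 h and 0.0360 at 24 h. Median scaling in place of quantile normalization moved the median of all probes at 24 h to 0.12. With it, the differences were 0.75 (adjusted p = 0.00219) at 12 h and 0.80 (adjusted p = 0.00101) at 24 h. These were the 3 of 13 alternatives in which Egr1 passed at each time. With median scaling the SE at 12 h against 0 h was 0.18 for each of the 5 tested members, so the fit gave them nearly 1 common spread. In the main fit it was 0.22 for Egr1 and 0.10 for Zfp36. Egr1 did not pass with trend and robust moderation (adjusted p = 0.217 and 0.229) or with no filter (0.354 at both times). In the authors' deposited table its adjusted p was 0.266 at 12 h and 0.261 at 24 h. The lowest differences among the alternatives were 0.48 at 12 h and 0.53 at 24 h, without 0 h replicate 1. The fibroblast and smooth muscle markers, summed, gave 1069 and 1090 units at 12 h and 1127 and 1202 units at 24 h, against 1066 and 967 units at 0 h. Of the 9 embryonic stem cell markers tested, Utf1 rose and Nanog fell at both 12 and 24 h against 0 h. Of the 5 primitive endoderm markers tested, Lama1 and Col4a1 fell at 12 h, and Lama1 and Sox7 at 24 h. Of all tested probes, 6.09% passed at 12 h and 3.06% at 24 h. The part of these markers in the Egr1 difference was not tested.

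**Figure D2:**
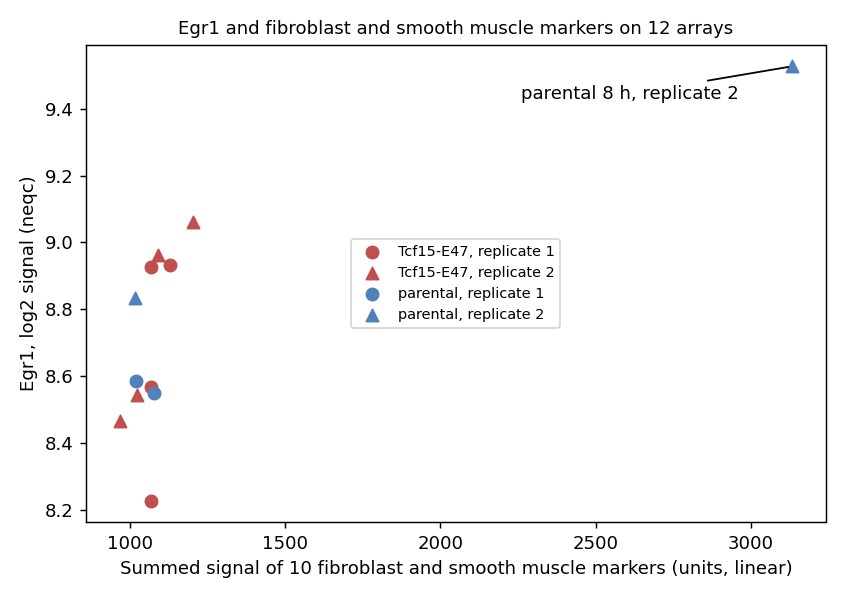
Egr1 (log2 signal, vertical) against the summed linear signal of 10 fibroblast and smooth muscle marker genes (horizontal) on 12 arrays, with Tcf15-E47 cells in red and parental cells in blue. Parental 8 h replicate 2 stands alone at 3133 units and 9.53, and the other 11 arrays lie between 967 and 1202 units.

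By group mean, Egr1 ran in the order 9.06 ± 0.66 (SD, n = 2 here and below) in parental cells at 8 h, 9.0 ± 0.09 at 24 h, 8.95 ± 0.03 at 12 h, 8.69 ± 0.20 in untreated parental cells, 8.56 ± 0.02 at 8 h and 8.35 ± 0.17 at 0 h. The 3 highest groups did not differ beyond their spread. The step from 8 to 12 h was 0.39 (interval -0.08 to 0.86, adjusted p = 0.362), and 24 h against 12 h gave 0.05 (interval -0.42 to 0.52, adjusted p = 0.938). At 8 h against 0 h the difference was 0.21 in Tcf15-E47 cells (interval -0.26 to 0.68, adjusted p = 0.999) and 0.36 in parental cells (interval -0.11 to 0.84, adjusted p = 0.845). Without parental 8 h replicate 2, the parental difference was -0.11. The difference between the 8 h responses was -0.16 (interval -0.82 to 0.51, adjusted p = 0.988).

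Zfp36 was lower in untreated Tcf15-E47 cells than in untreated parental cells, at 0.75-fold, and this was the single member call. It read 7.90 and 8.07 in untreated Tcf15-E47 cells, against 8.44 and 8.35 in untreated parental cells. Both Tcf15-E47 arrays lay below both parental arrays, and all 8 Tcf15-E47 arrays, from 7.90 to 8.17, lay below all 4 parental arrays, from 8.24 to 8.44. Of all tested probes, 5.05% had all 8 Tcf15-E47 arrays below all 4 parental arrays, and 23.3% lay wholly lower in untreated Tcf15-E47 than in untreated parental cells. The difference was -0.41 ± 0.10 log2 units (SE, interval -0.64 to -0.19, limma adjusted p = 0.0475). Of all tested probes, 1.8% passed as lower in this comparison and 3.51% in either direction. The call sat at the edge of the threshold and was lost with median scaling (-0.30, adjusted p = 0.412), with only the groups compared (adjusted p = 0.157), without parental 8 h replicate 2 (adjusted p = 0.0619) and without any 1 of the 4 arrays compared (adjusted p from 0.0994 to 0.246). In the authors' deposited table, with its sign turned, the same difference was -0.33 with an adjusted p of 0.011.

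Zfp36 passed the test at no time of dox against 0 h. Across the time course it read 7.90 and 8.07 at 0 h, 7.93 and 8.03 at 8 h, 8.17 and 8.08 at 12 h, and 8.13 and 8.13 at 24 h. The difference from 0 h was -0.0022 at 8 h, 0.14 at 12 h (interval -0.09 to 0.36, adjusted p = 0.460) and 0.15 at 24 h (interval -0.08 to 0.37, adjusted p = 0.499). Its 2 late group means, 8.12 ± 0.07 and 8.13 ± 0.0047, lay below the parental means of 8.29 ± 0.07 at 8 h and 8.40 ± 0.06 at 0 h. Markers of other cells moved in the same comparison of untreated lines: Dcn, a fibroblast proteoglycan, was at least 1.60-fold higher in Tcf15-E47 cells (adjusted p = 0.0103) and Sox7, a primitive endoderm factor, fell by 0.80 log2 units (adjusted p = 0.00330). Dcn was the 1 of 3 tested fibroblast and smooth muscle markers that read higher, and the list's median was -0.15, against 0.01 over all probes. Of the 5 tested primitive endoderm markers 0 read higher, with a median of -0.34. Over whole lists, the 10 fibroblast and smooth muscle markers summed to 1066 and 967 units in untreated Tcf15-E47 cells, against 1079 and 1017 units in untreated parental cells, with 3 and 2 against 1 and 1 detected. The 8 primitive endoderm markers summed to 1166 and 1007 units, against 1351 and 1125 units, with 5 detected on each of these arrays and Gata4, Sox17 and Foxa2 on none. Their part in the Zfp36 difference was not tested.

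**Figure D3:**
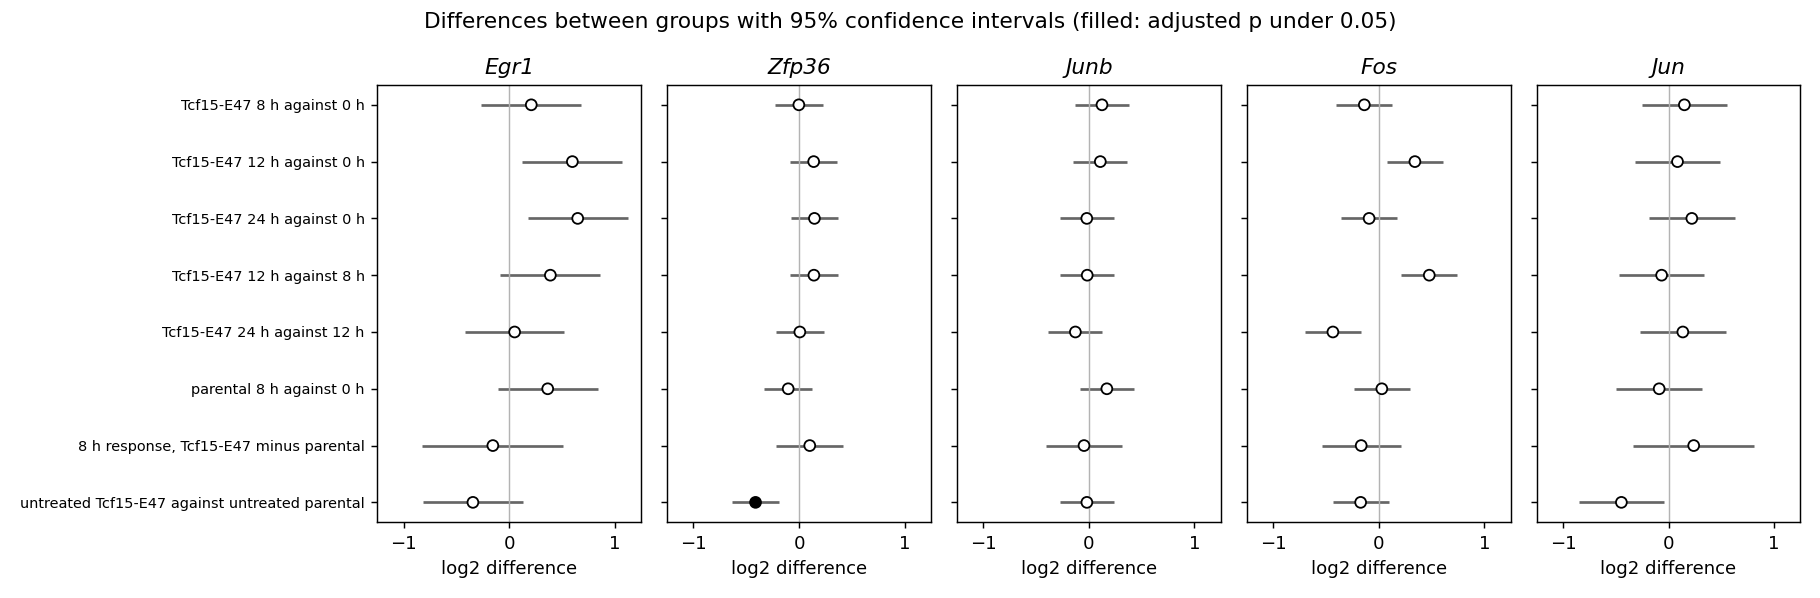
Log2 differences of the 5 tested members in the 8 comparisons, with 95% confidence intervals from limma, as the first-named group minus the second. The filled point, Zfp36 between the untreated lines at -0.41, is the 1 call. The intervals are not adjusted for the number of probes. Uncalled intervals clear of 0 are those of Egr1 at 12 and 24 h against 0 h and of Jun between the untreated lines. Those of Fos are also clear of 0 at 12 h against 0 h, at 12 h against 8 h and at 24 h against 12 h.

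Fos, the inducible AP-1 subunit, was near background throughout and highest at 12 h. It read 4.82 and 4.80 at 0 h, 4.52 and 4.83 at 8 h, 5.16 and 5.15 at 12 h, and 4.61 and 4.83 at 24 h. In parental cells it read 4.93 and 5.10 at 8 h, against 5.0 and 4.97 at 0 h. Against 0, 8 and 24 h in turn, both 12 h arrays lay above both arrays of the other time. Within the Tcf15-E47 cells the 12 h arrays were the ones with detectable Fos. Of all tested probes, 29% lay wholly higher at 12 h than at 0 h, 27.3% wholly higher at 12 h than at 8 h and 24.7% wholly lower at 24 h than at 12 h. Where both arrays of 1 group were not well above background, the fold is a bound, taken from the brighter group's mean and the lowest detected signal of each dim array or the probe's own signal if higher. This bound compares mean readings and holds no sampling error, so it is not a minimum for the true change. For Fos at 12 h against 0 h the bound was 1.23-fold higher (fitted 0.34 ± 0.12, 95% interval 0.08 to 0.61, limma adjusted p = 0.119). Against 8 h it was 1.23-fold higher (fitted 0.48 ± 0.12, interval 0.21 to 0.74, adjusted p = 0.0516), where 3.26% of all probes were called. At 24 h against 12 h it was 1.09-fold lower (fitted -0.43 ± 0.12, interval -0.70 to -0.17, adjusted p = 0.109, with 0.949% of all probes called). None passed, although the fit with 1 probe per gene gave an adjusted p of 0.0407 for 12 h against 8 h. The 12 h group is one of those through which Fos passed the filter. In the authors' deposited table Fos at 12 h against 0 h had an adjusted p of 0.288.

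Jun, the Fos partner, had its highest readings in parental cells. It read 4.51 and 4.67 at 0 h, 4.72 and 4.76 at 8 h, 4.53 and 4.81 at 12 h, and 4.70 and 4.92 at 24 h in Tcf15-E47 cells. In parental cells it read 4.65 and 5.25 at 8 h, against 5.25 and 4.81 at 0 h. The parental replicates disagreed, by 0.60 at 8 h, and no Tcf15-E47 array detected Jun. The fitted difference of untreated Tcf15-E47 cells from untreated parental cells was -0.45 ± 0.19 (adjusted p = 0.197). Of the untreated parental arrays Jun was detected on replicate 1 and not on replicate 2, and the parental arrays are the ones through which it passed the filter. Jun passed in 0 of the 8 comparisons, and the fitted differences in the other 7 ran from -0.09 to 0.24.

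Junb, an AP-1 subunit that often opposes Jun, was steady. It read 7.42 and 7.37 at 0 h, 7.47 and 7.57 at 8 h, 7.67 and 7.34 at 12 h, and 7.42 and 7.33 at 24 h. In parental cells it read 7.57 and 7.60 at 8 h, against 7.36 and 7.47 at 0 h. The full range over 12 arrays was 0.34 log2 units, and the replicates at 12 h alone spanned 0.33. The Junb difference at 12 h against 0 h was 0.11 (interval -0.15 to 0.36, adjusted p = 0.634), and at 24 h it was -0.02 (interval -0.27 to 0.23, adjusted p = 0.955).

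Ier2 and Atf3 were not distinguished from negative controls on any array. Ier2 lay between 4.22 and 4.50, with detection p from 0.0897 to 0.771, and Atf3 between 4.21 and 4.36, with detection p from 0.235 to 0.832. With the filter removed, 0 of the 16 tests of these members passed, and the lowest adjusted p was 0.635. At this signal a change in either gene was not detectable unless it carried the probe above background.

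At 8 h, the shortest time sampled, no member passed in either line. Of all probes, 0.0144% passed in Tcf15-E47 cells at 8 h against 0 h, and 0% passed in parental cells and in the difference of the responses, where limma gave 880 and 719 probes with an unadjusted p under 0.05. For the other members, the 8 h response of Tcf15-E47 cells minus that of parental cells was 0.10 for Zfp36 (interval -0.22 to 0.42), -0.05 for Junb (interval -0.41 to 0.31), -0.17 for Fos (interval -0.54 to 0.21) and 0.24 for Jun (interval -0.33 to 0.81). These intervals leave room for line differences of either sign.

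Among other immediate early transcription factors, 9 of 17 genes were tested and 1 rose at 12 h against 0 h, where 6.09% of all tested probes passed in either direction. Csrnp1, a nuclear factor induced by Axin, rose by 0.59 ± 0.13 log2 units (adjusted p = 0.0216) and by 0.68 against 8 h (adjusted p = 0.0176). The list's median was -0.05 at 12 h, against 0.01 over all probes. At 24 h 0 of the 9 passed. The Csrnp1 call at 12 h was lost without any 1 of the 4 arrays compared and with no filter (adjusted p up to 0.125).

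Of 25 further immediate early genes 20 were tested, and at 12 h against 0 h 2 rose and 1 fell, where 6.09% of all tested probes passed in either direction. Dusp2, a nuclear phosphatase of ERK, was at least 1.34-fold higher (fitted 0.72 ± 0.14, adjusted p = 0.0117). Socs3, the feedback inhibitor of LIF signalling, rose by 0.46 ± 0.11 (adjusted p = 0.0246). Gadd45b, a stress-response gene, fell by 0.81 on the log2 scale (SE 0.17, adjusted p = 0.0148). The median of the list was -0.02 at 12 h, against 0.01 over all probes, and 0 of 20 passed at 24 h. The Socs3 call was lost without any 1 of the 4 arrays compared. The Gadd45b call was lost with no filter and without 0 h replicate 1, 12 h replicate 1 or 12 h replicate 2. That of Dusp2 was lost without 0 h replicate 2 or 12 h replicate 1. Without parental 8 h replicate 2 the count was 3 risen and 1 fallen, the added gene being Errfi1, a feedback inhibitor of the EGF receptor. In untreated Tcf15-E47 cells against untreated parental cells, Ier3, a regulator of apoptosis, fell by 0.57 (adjusted p = 0.0310), and the list's median was -0.22 against 0.01 over all probes. The Ier3 call was lost with median scaling, with no filter, with only the groups compared, without either untreated Tcf15-E47 array and without parental 0 h replicate 2.

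Of the genes that feed back on ERK, 1 of 9 tested was called at 12 h and 2 at 24 h, where 6.09% and 3.06% of all tested probes passed, and Dusp4 was called at both times. It encodes a nuclear phosphatase of ERK and read 0.69 ± 0.10 higher at 12 h (adjusted p = 0.00236) and 1.00 ± 0.10 higher at 24 h (adjusted p = 0.000422) than at 0 h, and both calls held in all 13 alternatives run. Spry4, an inhibitor of receptor tyrosine kinase signalling, rose by 0.52 ± 0.12 at 24 h (adjusted p = 0.0383). That call was lost with no filter, with only the groups compared, without parental 8 h replicate 2 and without any 1 of the 4 arrays compared. Of the 9 genes tested of 11, 8 had a positive difference at 12 h and 8 at 24 h, with medians of 0.30 and 0.26, against 0.01 and 0.00 over all probes. Untreated Tcf15-E47 cells started from a lower Dusp4 level than untreated parental cells, by -0.51 ± 0.10 (adjusted p = 0.0206). This call between the lines was lost with median scaling, with only the groups compared, without either untreated Tcf15-E47 array and without parental 0 h replicate 1.

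The genes around Atf3 in the integrated stress response, 8 of 8 tested, moved in both directions: 1 rose and 2 fell at 12 h and 1 rose at 24 h, where 6.09% and 3.06% of all tested probes passed. At 12 h against 0 h, Atf4, the factor that drives this response, fell by 0.75 (SE 0.14, adjusted p = 0.00881). Against its 12 h level, Atf4 at 24 h was 0.75 ± 0.14 higher (adjusted p = 0.0319). Ddit3 (CHOP), a target of Atf4, fell by 0.41 at 12 h (adjusted p = 0.0499), a call kept in 1 of 13 alternatives. Ddit4, an inhibitor of mTORC1, rose by 0.44 ± 0.12 at 12 h (adjusted p = 0.0432). That call was lost without parental 8 h replicate 2, with no filter and without any 1 of the 4 arrays compared. Between the untreated lines Ddit4 was the 1 gene of this list called, lower in Tcf15-E47 cells, where 3.51% of all tested probes passed. This second call was kept in 5 of 13 alternatives. Chac1, a glutathione-degrading enzyme and Atf4 target, rose by 0.58 ± 0.12 at 24 h (adjusted p = 0.0226). The Atf4 call at 12 h was lost without 0 h replicate 1, 12 h replicate 1 or 12 h replicate 2. Those of Atf4 at 24 h and of Chac1 were lost with no filter and without any 1 of the 4 arrays compared. That of Atf4 at 24 h was also lost with only the groups compared.

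Other related lists were small, and 0% to 6.09% of all tested probes passed in the 8 comparisons, so counts near 0 do not set these lists apart. Of the other AP-1 genes 2 of 8 were tested, Jund and Atf2, and 0 passed in any of the 8 comparisons. Of the stress kinases upstream of Jun 8 of 11 were tested and 0 passed in any comparison. Of the ERK and SRF components 5 of 16 were tested, and 1 passed, between the untreated lines, where 3.51% of all tested probes passed. Map2k1 (MEK1) was 0.58 ± 0.12 higher in untreated Tcf15-E47 cells than in untreated parental cells (adjusted p = 0.0248). That call was lost with no filter, with only the groups compared and without any 1 of the 4 arrays compared. Nab1, a corepressor of Egr1, was the 1 EGR cofactor tested of 2 and passed in 0 comparisons.

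**Figure D4:**
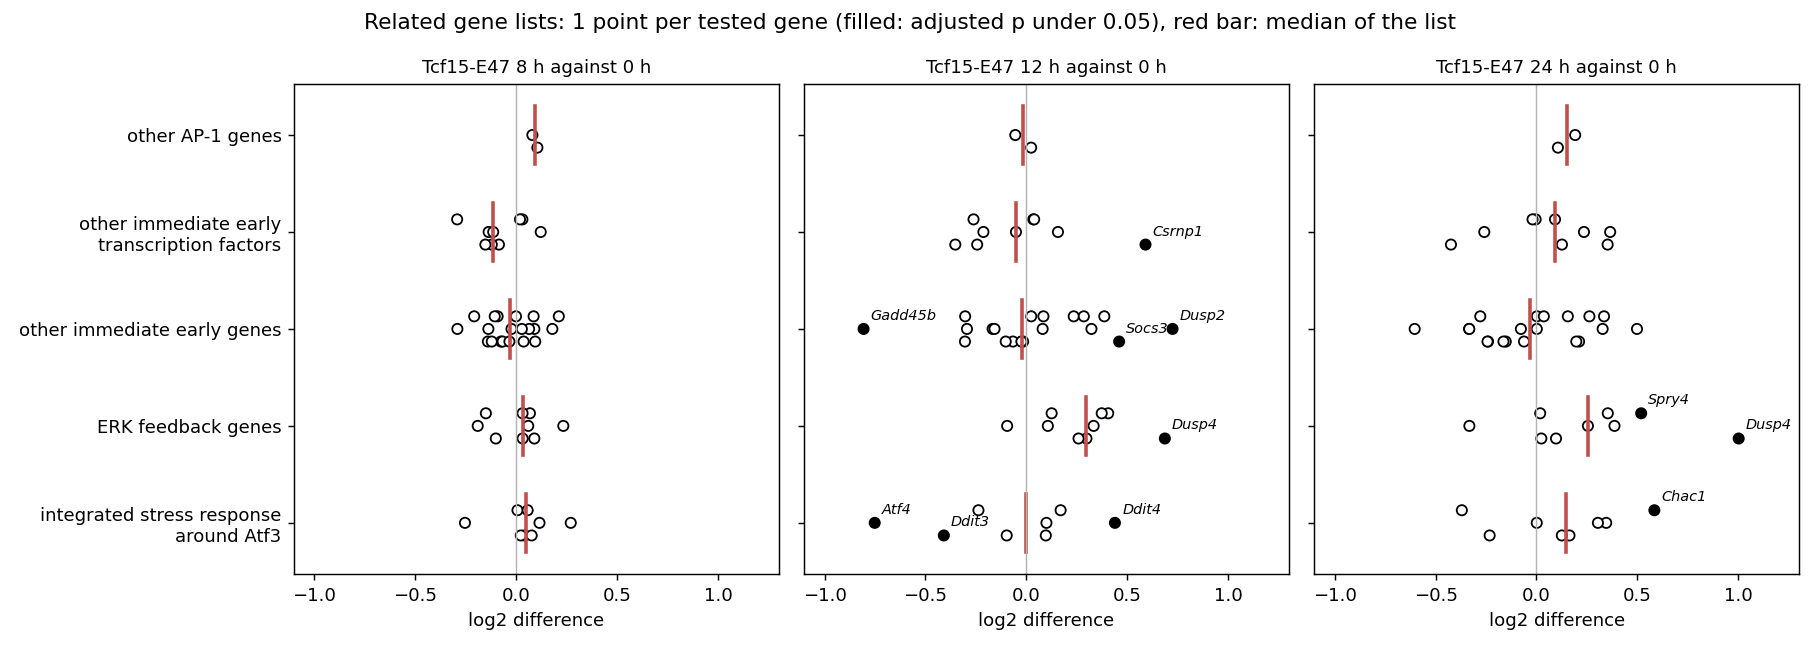
Log2 differences of Tcf15-E47 cells at 8, 12 and 24 h against 0 h for 5 related gene lists, with 1 point per tested gene, filled points for adjusted p under 0.05 and red bars for list medians. No gene of these lists is filled at 8 h, 8 are filled at 12 h and 3 at 24 h, with Dusp4 filled at both.

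Correlation between the members varied. Over the 12 arrays, Pearson's r between tested members ran from -0.18 (Jun with Junb) to 0.69 (Jun with Zfp36). Fos was detected on 4 of these arrays and Jun on 2, and Junb ranged over 0.34 log2 units. A low r with these members therefore does not show that profiles differ. The points share line, time and normalization. The genes most like Egr1 among 8532 were Errfi1 (r = 0.91), Igsf1 (r = 0.89) and Vasn (r = 0.88). Errfi1 read 9.05 on parental 8 h replicate 2, against 8.08 on replicate 1. Igsf1 read 5.72 against 5.24 on these arrays and Vasn 6.78 against 5.91, so the likeness of each rests in part on replicate 2. The genes most like Zfp36 were Shisa5 (r = 0.95), Pias1 (r = 0.94) and Micu2 (r = 0.94). Fos was most like Ccnd3 (r = 0.90), Ajuba (r = 0.88) and Ttc13 (r = 0.87). Jun was most like Trim11 (r = 0.91), Otub1 (r = 0.87) and Cul3 (r = 0.86), and Junb was most like Scn2a (r = 0.89), Eci1 (r = 0.81) and Zfp746 (r = 0.79). The mean of the 5 tested members, each centred on its own mean, was most like Dad1 (r = 0.91), Tmem9b (r = 0.90), Emp3 (r = 0.89), Myl6 (r = 0.88) and Phlda3 (r = 0.87). Ajuba, Trim11 and Scn2a read near the lowest detected signals, which were 4.81 to 5.10 log2 units over the arrays. All these likenesses are descriptions over 12 arrays, most of them of 1 line.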

How the data were processed

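RNA of 12 samples was amplified and hybridized to Illumina BeadChips, per the labels' protocols. The authors deposited linear bead signal intensity with a detection p-value per entry, per the file headers, a table of normalized log2 values, and a table of their own log2 fold changes and adjusted p-values. The submitters' processing notes name limma, with no version given. Names of the 30854 intensity entries matched 0 of the 38561 probes of the log2 table, so signal and detection p were recovered by value. The authors' log2 values keep the order of the signals on each array, and 17051 entries matched a probe on all 12 arrays. Isotonic curves per array (scikit-learn 1.9.0), fitted to these, gave the signal of every probe and the detection p of probes with no matched entry. Of 8556 held-out entries, 100% found the same probe again, but they were drawn from entries already kept for a close match. That check therefore does not cover probes with no matched entry. Junb had no matched entry, so its signal and detection p both come from curves.

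Background correction and quantile normalization used the neqc method (limma 3.58.1, R 4.3.3, offset 16). Group means over 12 arrays were fitted with lmFit and eBayes (6 residual and 7.13 prior degrees of freedom, two-sided), with Benjamini-Hochberg adjustment over the 13914 probes per comparison and calls at an adjusted p under 0.05. On simulated data for 24 h against 0 h over 13914 probes, 57% of probes changed by 0.5 and 100% of those changed by 1 (log2) were called. The number of arrays limits the precision. The members and gene lists were chosen with earlier results of these data known. Related genes other than cell type markers are named when called, up to 4 per list and comparison and 1 probe (the highest mean) per gene. Also named are the 3 most correlated genes per member. Of the cell type markers, not every called gene is named. Gene names came from the platform annotation and promoters from RefSeq. The alternatives are given in the closing section.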

Additional observations from a re-analysis of the deposited data

How the results depend on the processing

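Over 531 member values under alternatives, 8 gained a call, 8 lost one, 0 reversed a called direction, and 10 uncalled values changed sign by more than 1 SE. The count of members called at 12 h and at 24 h against 0 h was 0, and it was 1 (Egr1) with median scaling, with only the groups compared and without parental 8 h replicate 2. This left-out array was chosen after seeing the data. At 12 h against 8 h the count was 0, and 1 (Fos) with 1 probe a gene and with the replicate block (adjusted p = 0.0475). Between the untreated lines it was 1 (Zfp36), and 0 with median scaling, with only the groups compared, with the replicate block (adjusted p = 0.0566), without parental 8 h replicate 2 and in each leave-one-out fit, a range of 0 to 0. Leaving out 1 array of the groups compared gave 0 to 0 members elsewhere. The cause of these changes was not tested. Replicate numbers did not pair the samples: the correlation of replicate deviations between groups ran from -0.08 to 0.15 over 15 pairs and was below 0 in 7. The replicate block changed no other member call. Signal close to background limits Fos, Jun, Ier2 and Atf3. Slide as a block was not run, since the headers give no slides.

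Counts over all probes moved by more than 1.5 times as follows. At 8 h against 0 h there were 2 calls, and 0 to 7 under alternatives. At 12 h there were 847, with 1276 from the authors' normalized values, 1283 with trend and robust moderation, 537 with median scaling and 143 to 290 leaving out 1 array. At 24 h there were 426, with 675, 740, 277 with no filter, 235 with only the groups compared and 73 to 136 leaving out 1 array. At 12 h against 8 h there were 454, with 808, 791, 201 with median scaling, 285 with no filter and 57 to 122 leaving out 1 array. At 24 h against 12 h there were 132, with 349, 421, 71 with no filter, 26 with only the groups compared, 80 without parental 8 h replicate 2 and 3 to 11 leaving out 1 array. In parental cells there were 0, with 18 from median scaling and up to 57 leaving out 1 array, and the difference of responses gave 0 to 9. Between the untreated lines there were 488, with 929, 989, 755 in the authors' deposited table, 283 with median scaling, 56 with only the groups compared and 52 to 382 leaving out 1 array. Median scaling moved the higher and lower calls to 322 and 215 at 12 h, against 334 and 513, to 281 and 92 at 24 h, against 173 and 253, and to 219 and 64 between the untreated lines, against 237 and 251. It moved them to 84 and 117 at 12 h against 8 h, against 142 and 312, and to 70 and 28 at 24 h against 12 h, against 69 and 63.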

Other observations

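Parental 8 h replicate 2 held the highest of the 12 values for 7.14% of tested probes. Among the members this was so for Egr1, and Jun there was 0.60 log2 units above replicate 1, a signed gap larger than that of 99.5% of tested probes. Of the 20 further immediate early genes it was so for Errfi1 and Rhob, a small GTPase of the actin cytoskeleton, and of the 9 other immediate early transcription factors for Srf and Hes1. Srf, the factor that binds CArG boxes, read 8.07 on replicate 2 and 7.92 on replicate 1, a signed gap larger than that of 82.1% of tested probes. Zfp36, which has a CArG match in its promoter, read 8.35 and 8.24, a signed gap larger than that of 74.8%. The highest Zfp36 value was on parental 0 h replicate 1, and a link between Srf and Zfp36 was not tested. Junb differed by 0.02 and Fos by 0.17 between these arrays. Srf, Hes1 and Rhob were named after their values were seen.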
